A study of Mus musculus with 22 samples.

Results

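The 32 genes described here encode collagen chains of mouse other than those of the major fibrils of bone and skin. They were taken from a list of gene names that holds the chains of types IV, VI, VII, VIII, IX, XI to XX, XXII to XXV, XXVII and XXVIII. All 32 were found among the 22350 protein-coding gene entries of chromosomes 1 to 19 and X in the mm9 annotation. For each gene, a transcription factor site was counted if no more than 100 kb separated its centre from the nearest annotated start of that gene. A histone mark was called when 1 of its regions lay over a start, and H3K36me3 when its regions covered at least 50% of the gene body.

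The data are chromatin immunoprecipitation sequencing (ChIP-seq) region lists of the pre-osteoblast line MC3T3-E1 from mouse, which lays down mineralized matrix in osteogenic culture. The groups are differentiated cells with calcitriol, differentiated cells with vehicle, undifferentiated cells with calcitriol and undifferentiated cells with vehicle. Calcitriol, the hormonal form of vitamin D, was given at 100 nM and ethanol was the vehicle, each for 3 h before the assay. Differentiated cells had been kept for 15 days with ascorbic acid and glycerol-2-phosphate, and passages 5 to 12 were used. The 9 antibodies were against RUNX2, C/EBPβ, the vitamin D receptor (VDR) and its dimer partner RXR (retinoid X receptor), and against H4K5ac, H3K9ac, H3K4me1, H3K4me3 and H3K36me3. For VDR and RXR both treatments are included; vehicle lists of the other antibodies were not analysed here. Each of the 22 groups has 1 list, so no spread between cultures could be measured and no test between groups was made. Mineralized matrix was removed by homogenizing and spinning through sucrose in differentiated cultures alone, per the labels' protocols, so cell state and preparation cannot be told apart.

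Network-forming collagens build the sheets of basement membranes, and type VI collagen forms beaded filaments around cells. FACIT collagens, short for fibril-associated collagens with interrupted triple helices, sit on the surface of the major fibrils, and minor fibrillar chains join or nucleate such fibrils. Transmembrane collagens anchor cells to matrix, and multiplexins lie between basement membranes and the tissue beneath. VDR binds DNA mostly as a dimer with RXR, and its classical element, DR3, is a direct repeat of hexamers with a spacer of 3 bases.

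Lists of factor sites held between 274 sites (VDR, differentiated, vehicle) and 17950 sites (C/EBPβ, undifferentiated, calcitriol), and those of marks between 6983 and 53858 regions. Of 10 osteoblast markers, 6 (Runx2, Sp7, Spp1, Col1a1, Col1a2 and Sparc) carried H3K4me3 over a start in differentiated and in undifferentiated cells. The osteocalcin genes Bglap and Bglap2 carried none of the 4 start marks in either state, and Alpl gained H3K9ac in differentiated cells alone. H3K4me3 lay over none of the 6 marker genes each for adipocytes, muscle, blood, endothelium and epithelium in either state. Of 6 cartilage markers it lay over Sox9 in differentiated cells, and over Sox9 and Col2a1 in undifferentiated cells.

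The sequences below show the VDR sites near these genes that hold the classical element. They are the 9 DR3 matches inside VDR sites of undifferentiated cells with calcitriol, with flanking bases of mm9 on either side, nearest to a start first. Distances run from the nearest annotated start to the centre of the site and are negative before it. Where Col4a1 and Col4a2 are both named, the distance is to the nearer start of either gene. That is a start annotated inside Col4a2 for the site at -4.42 kb and a Col4a1 start for the site at -40.0 kb. The element is in capitals and is written in its own direction. Those of Col8a1 and Col14a1 matched without a mismatch and the others carried 1. The element in Rab20, behind Col4a2, is the one that a VDR site of differentiated cells also held.
Col4a1 and Col4a2 site at -4.42 kb, Col4a2 intron, chr8:11400500-11400550, minus strand: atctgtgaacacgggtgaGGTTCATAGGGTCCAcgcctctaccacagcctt
Col16a1 site at -10.5 kb, intergenic, chr4:129714574-129714624, plus strand: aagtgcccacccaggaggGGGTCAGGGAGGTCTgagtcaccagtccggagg
Col4a2 site at 12.2 kb, intergenic, chr8:11453285-11453335, plus strand: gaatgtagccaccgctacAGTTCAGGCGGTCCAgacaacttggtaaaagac
Col15a1 site at -15.3 kb, intergenic, chr4:47205752-47205802, plus strand: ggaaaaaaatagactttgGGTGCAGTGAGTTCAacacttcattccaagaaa
Col4a2 site at 16.4 kb, Rab20 intron, chr8:11457469-11457519, plus strand: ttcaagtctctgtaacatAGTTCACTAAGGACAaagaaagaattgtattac
Col4a3 site at -27.6 kb, Col4a3 intron, chr1:82684351-82684401, minus strand: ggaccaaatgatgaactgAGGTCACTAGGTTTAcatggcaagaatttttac
Col4a1 and Col4a2 site at -40.0 kb, Col4a2 intron, chr8:11352932-11352982, minus strand: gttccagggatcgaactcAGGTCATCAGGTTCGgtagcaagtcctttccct
Col14a1 site at -46.3 kb, intergenic, chr15:55093032-55093082, plus strand: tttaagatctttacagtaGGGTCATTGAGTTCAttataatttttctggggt
Col8a1 site at 85.2 kb, Col8a1 intron, chr16:57669674-57669724, plus strand: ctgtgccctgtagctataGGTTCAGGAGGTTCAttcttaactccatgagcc

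The next pair are whole VDR sites at which RXR, C/EBPβ and RUNX2 sites of the same cells also lay. They were picked after their values were seen, as sites without a DR3 match that hold matches for both other factors. Capitals mark RUNX matches (the letters TGTGGTT or else TGTGGTC or else TGCGGTT or else TGCGGTC) and C/EBP matches (the letters TTGCNNAA or else TTACNNAA), searched on both strands. The plus strand of mm9 is shown. The Col24a1 site is at chr3:144861031-144861231, at -94.3 kb, and the Col27a1 site is at chr4:62971824-62972024, in an intron of Col27a1.
Col24a1 upstream: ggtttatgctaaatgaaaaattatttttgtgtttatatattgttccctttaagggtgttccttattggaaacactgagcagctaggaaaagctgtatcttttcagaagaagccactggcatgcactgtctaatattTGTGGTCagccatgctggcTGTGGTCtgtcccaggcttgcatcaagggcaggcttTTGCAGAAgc
Col27a1 intron: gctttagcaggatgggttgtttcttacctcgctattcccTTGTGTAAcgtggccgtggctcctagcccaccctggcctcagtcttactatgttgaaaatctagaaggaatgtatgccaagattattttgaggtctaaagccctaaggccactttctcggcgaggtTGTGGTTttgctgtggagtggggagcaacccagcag

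With calcitriol, VDR sites lay near most of these collagen genes in undifferentiated cells and near few of them in differentiated cells. In differentiated cells 6 of 32 genes had a VDR site, or 18.8%, against 12.1% of all protein-coding genes. In undifferentiated cells 22 of 32 had one, or 68.8%, against 40.8% of all genes. The 6 were Col4a2, Col4a3, Col8a2, Col9a3, Col12a1 and Col16a1, and all of them also had a site in undifferentiated cells. The other 16 had a site only in the undifferentiated list, a pattern found in 28.9% of all genes. Fewer sites were counted after differentiation near 21 members, against 36% of all genes, and more near none, against 0.318% of all genes. These shares include genes with no VDR site in either list. Among genes with a site in undifferentiated cells, 16 of 22 members and 6468 of 9122 of all genes had none after differentiation. Fewer sites were then counted for 21 of the 22 and for 8056 of the 9122. No member had a VDR site in differentiated cells alone, against 0.233% of all genes. The whole calcitriol VDR list held 871 sites in differentiated and 7000 in undifferentiated cells.

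**Figure D1:**
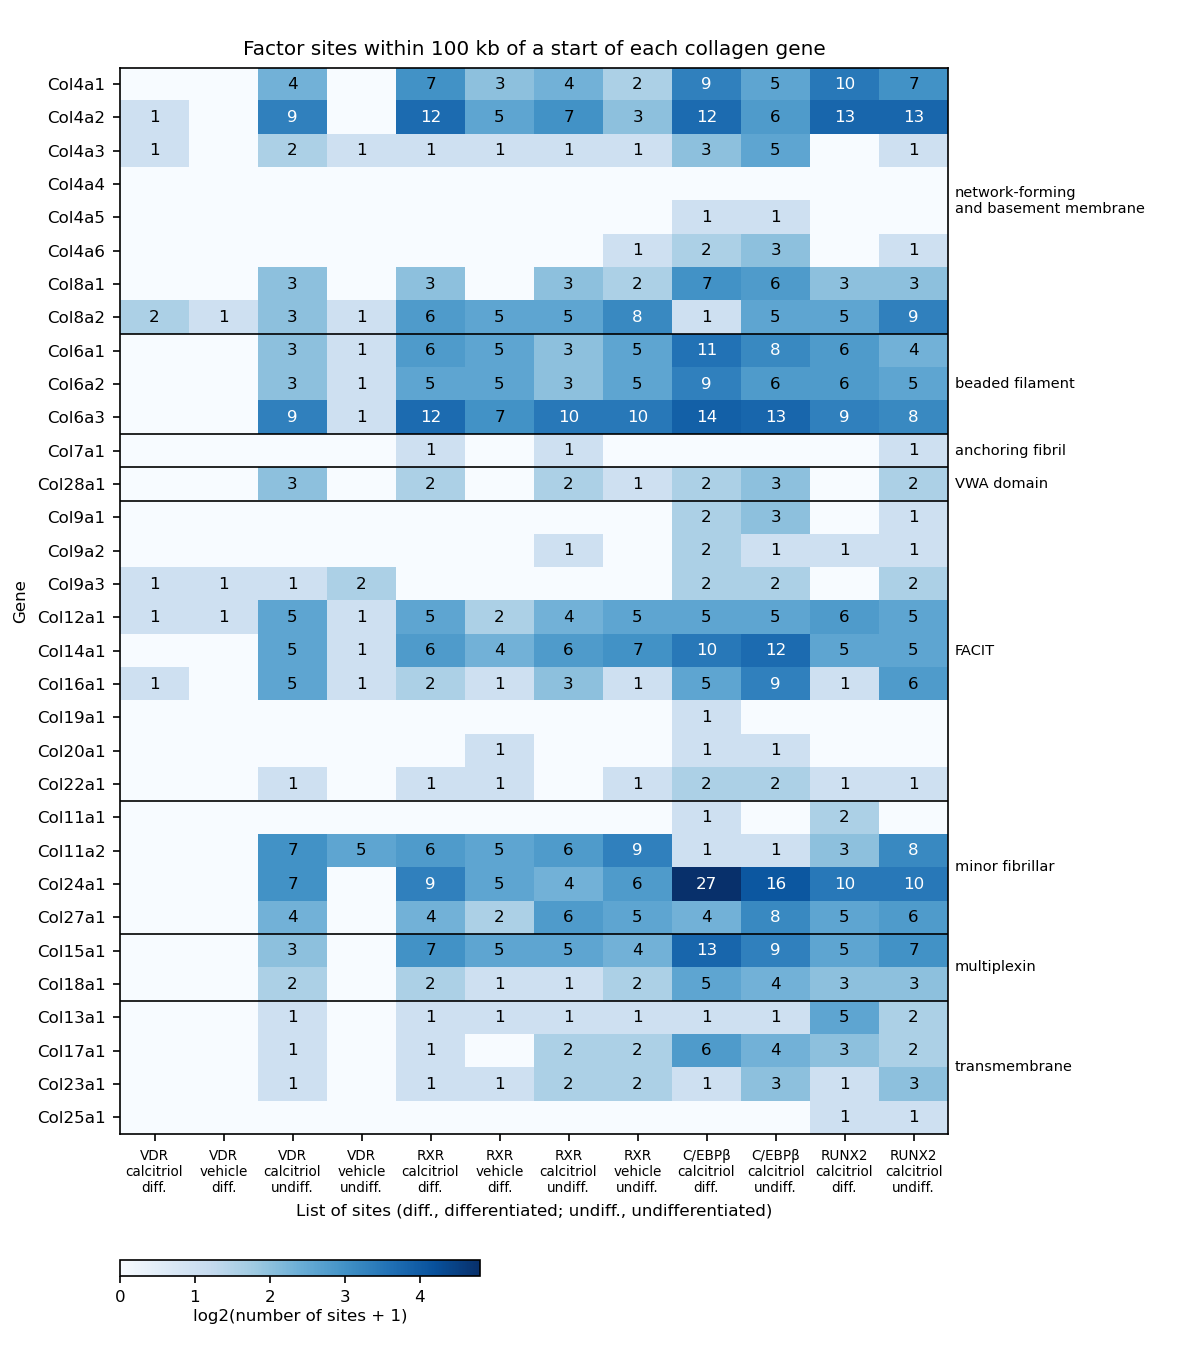
Number of factor sites within 100 kb of a start for each of the 32 collagen genes (rows, grouped by role) in the 12 factor lists (columns); empty cells are 0 and shading is log2(number + 1). VDR sites are dense in the column of undifferentiated cells with calcitriol and sparse in that of differentiated cells, while the C/EBPβ columns are filled for most genes, with 27 sites for Col24a1 in differentiated cells.

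Distinct VDR sites near the members numbered 7 in differentiated cells with calcitriol, 3 in differentiated cells with vehicle, 75 in undifferentiated cells with calcitriol and 14 in undifferentiated cells with vehicle. Counted per gene, the 75 sites gave 82, since Col4a1 and Col4a2, whose starts are 21 bp apart, shared 4 of them and the neighbours Col6a1 and Col6a2 shared 3. The other head-to-head pairs, Col4a3 with Col4a4 (72 bp) and Col4a5 with Col4a6 (1309 bp), shared no VDR site. Of the 75 sites, 7 (9.33%, 95% interval 3.84 to 18.3) were called again in differentiated cells, against 11.3% of the whole list of 7000. The interval includes the share of the list.

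In undifferentiated cells, 65 of the 75 sites (86.7%, 95% interval 76.8 to 93.4) were called with calcitriol and not with vehicle, against 88.8% of the list. Of 32 members, 12 had a VDR site with calcitriol and none with vehicle, against 25.9% of all genes, and 0 had the reverse (0.774% of all genes). Among genes with a calcitriol site, these were 12 of 22 members and 5782 of 9122 of all genes. Site counts were higher with calcitriol near 21 members (32.8% of all genes) and lower near 1, Col9a3 (1.33% of all genes). Those with a site under calcitriol alone include Col4a1, Col4a2, Col8a1, Col15a1, Col24a1 and Col27a1. In the vehicle lists, 3 of 32 members had a VDR site in differentiated cells (6.13% of all genes) and 10 of 32 in undifferentiated cells (15.7% of all genes). Gains with calcitriol thus outnumbered losses before differentiation. The whole VDR list there held 937 sites with vehicle and 7000 with calcitriol, and a gain beyond list length was not tested.

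In differentiated cells 4 of the 7 calcitriol sites (57.1%, 95% interval 18.4 to 90.1) were absent from the vehicle list, against 70.8% of that list. Those sites gave a VDR call with calcitriol alone to Col4a2, Col4a3 and Col16a1, a gain found in 6.09% of all genes, and no member had the reverse (0.107%). Counts were higher with calcitriol near 4 members, the same 3 and Col8a2 (6.87% of all genes), and lower near 0 (0.148%). Few sites were thus called with calcitriol alone after differentiation. The whole VDR list there held 274 sites with vehicle and 871 with calcitriol. With vehicle, 7 members had a VDR site in undifferentiated cells alone (9.76% of all genes) and 0 in differentiated cells alone (0.170%). Vehicle site counts were lower in differentiated cells near 8 members (11.9% of all genes) and higher near 0 (0.206%).

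Most of the vehicle sites belonged by position to neighbouring genes. All 3 vehicle sites of differentiated cells lay within 1 kb of a start of another gene, at Dido1, Adprhl2 and Cox7a2. Of the 14 in undifferentiated cells, 10 did so, at Mff, Rps18, Slc39a7, Brd2, Dido1, Adprhl2 or Cox7a2. When sites at the promoters of other genes were left out, a choice made after seeing the data, 0 members in differentiated cells (1.60% of all genes) and 5 in undifferentiated cells (6.21% of all genes) kept a vehicle VDR site. The calcitriol counts then were 4 in differentiated cells (6.38% of all genes) and 19 in undifferentiated cells (31.6% of all genes).

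These collagen genes are long. Their median length was 120 kb with a median of 3.5 annotated starts, against 15.4 kb and 2 starts for all protein-coding genes, so more sequence was searched around each. With the outermost start alone, 3 of 32 members had a calcitriol VDR site in differentiated cells (11.4% of all genes) and 17 in undifferentiated cells (39.1% of all genes). The differentiated share, 9.38%, was then below that of all genes. Per length, member gene bodies held 6.88 VDR sites per Mb in undifferentiated cells with calcitriol (30 sites in 4.36 Mb). Over all protein-coding gene bodies the value was 3.03 per Mb. In differentiated cells with calcitriol the density was 0.229 per Mb (1 site), against 0.357 per Mb. With vehicle it was 0 against 0.0895 per Mb in differentiated cells and 0.229 (1 site) against 0.405 per Mb in undifferentiated cells. How far length sets the counts per gene was not tested.

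**Figure D2:**
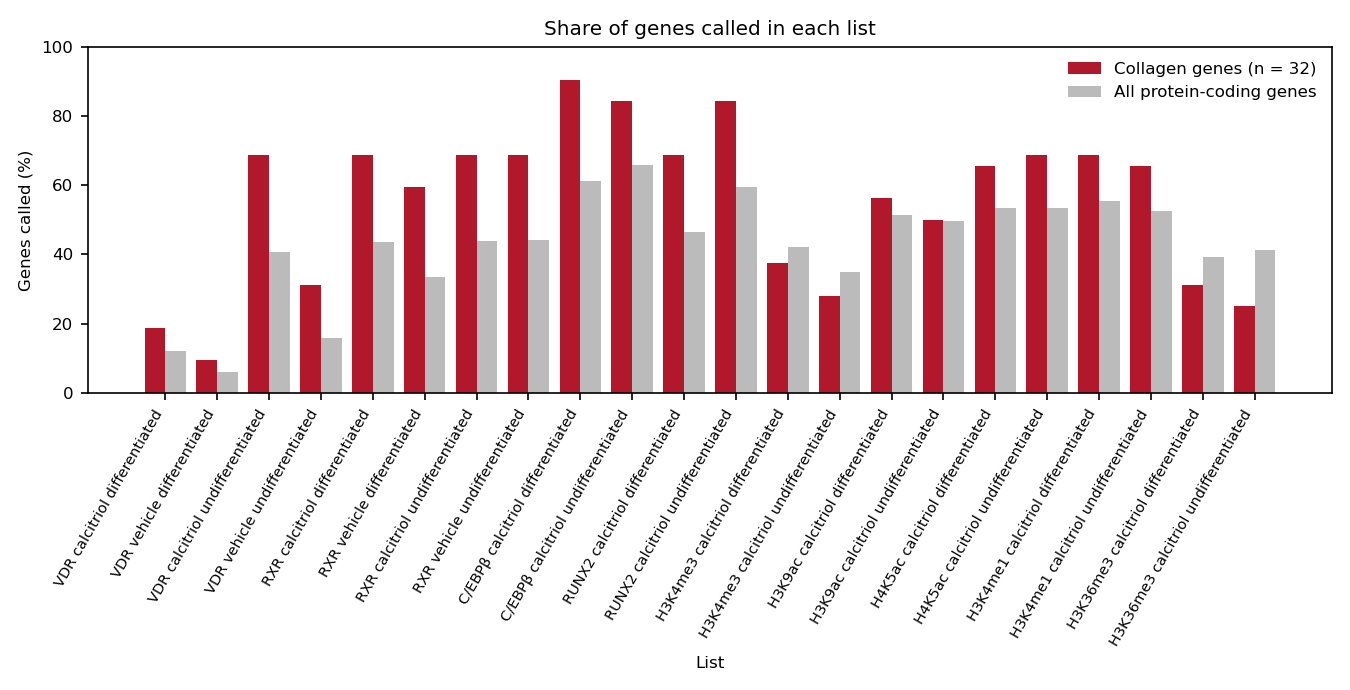
Percentage of the 32 collagen genes (red) and of all 22350 protein-coding gene entries (grey) called in each of the 22 lists; the vertical axis runs from 0 to 100%. Red bars exceed grey ones in all 12 factor lists, whereas for H3K4me3 and H3K36me3 the red bars are lower in both states.

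In differentiated cells the 6 genes with a calcitriol VDR site were 3 of 8 network-forming and 3 of 9 FACIT genes, against 12.1% of all genes. In undifferentiated cells, calcitriol VDR sites lay near 5 of 8 network-forming genes, 3 of 3 beaded-filament genes, 5 of 9 FACIT genes, 3 of 4 minor fibrillar genes, 2 of 2 multiplexin genes and 3 of 4 transmembrane genes, against 40.8% of all genes. Col28a1, which encodes a von Willebrand factor A domain collagen, had 3 sites there and 0 in the other VDR lists. Col28a1 had 2 RXR sites in differentiated cells with calcitriol, 0 in differentiated cells with vehicle, 2 in undifferentiated cells with calcitriol and 1 in undifferentiated cells with vehicle. It had 2 C/EBPβ sites in differentiated and 3 in undifferentiated cells, and 0 RUNX2 sites in differentiated and 2 in undifferentiated cells. Col7a1, the chain of the anchoring fibrils of skin, had no VDR site in any list.

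Among network-forming genes, Col4a1 and Col4a2 encode the chains found in nearly all basement membranes, and they lie head to head on chromosome 8. Col4a2 (chr8:11312805-11449287) had 1 VDR site in differentiated cells with calcitriol, 0 in differentiated cells with vehicle, 9 in undifferentiated cells with calcitriol and 0 in undifferentiated cells with vehicle. At least 9 sites were found near 112 genes, or 0.501% of all. Of the 9, 5 lie behind the gene in or beside Rab20, at 12.2 to 24.4 kb from the nearest start of Col4a2. With the outermost start alone Col4a2 had 4 sites in undifferentiated cells, all shared with Col4a1, so the others rest on starts annotated inside the gene. Of the 9 DR3 matches in members' VDR sites, 4 lie near the Col4a1 and Col4a2 pair.

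RXR sites near Col4a2 numbered 12 in differentiated cells with calcitriol, 5 in differentiated cells with vehicle, 7 in undifferentiated cells with calcitriol and 3 in undifferentiated cells with vehicle. RUNX2 sites numbered 13 in both states, a count reached by 17 genes (0.0761%) in differentiated and 59 genes (0.264%) in undifferentiated cells. With the outermost start alone they numbered 10 in differentiated and 7 in undifferentiated cells, the same counts as for Col4a1. C/EBPβ sites numbered 12 in differentiated and 6 in undifferentiated cells. Thus Col4a2 had nearly all of its VDR sites only before differentiation, while its RXR and C/EBPβ sites were more numerous after it. Col4a1 (chr8:11198423-11312826) had 4 VDR sites in undifferentiated cells with calcitriol and 0 in the other 3 VDR lists. It had 7 RXR sites in differentiated cells with calcitriol, 3 in differentiated cells with vehicle, 4 in undifferentiated cells with calcitriol and 2 in undifferentiated cells with vehicle. Its RUNX2 sites numbered 10 in differentiated and 7 in undifferentiated cells.

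The remaining type IV chains stood apart from this pair. Col4a3 and Col4a4, whose products form the network of the kidney glomerulus, carried none of H3K4me3, H3K9ac, H4K5ac and H3K4me1 over a start in either state. Col4a4 had no site in any of the 12 factor lists. Col4a3 had 1 VDR site in differentiated cells and 2 in undifferentiated cells with calcitriol, the shared one 93.5 kb from its nearest start. With vehicle it had 0 VDR sites in differentiated and 1 in undifferentiated cells. It had 1 RXR site in each of the 4 RXR lists. C/EBPβ sites numbered 3 in differentiated and 5 in undifferentiated cells, and at least as many were found near 28.1% and 14.9% of all genes. RUNX2 sites numbered 0 in differentiated and 1 in undifferentiated cells. All of these Col4a3 sites rest on starts annotated inside the gene, since its outermost start alone gave no site in any factor list. Col4a5 and Col4a6, X-linked chains, had no VDR site in any list, but H3K9ac, H4K5ac and H3K4me1 lay over a start in both states.

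Col8a1 and Col8a2 encode the chains of type VIII collagen, which forms lattices beneath endothelial cells. Col8a2 had 2 VDR sites in differentiated cells with calcitriol, 1 in differentiated cells with vehicle, 3 in undifferentiated cells with calcitriol and 1 in undifferentiated cells with vehicle. The site present in all 4 lists is the one at the promoter of Adprhl2, 21.2 kb from Col8a2, and the other differentiated site lay at -58.6 kb. Col8a1 had 3 VDR sites in introns in undifferentiated cells with calcitriol and 0 in the other 3 VDR lists. Col8a2 had 6 RXR sites in differentiated cells with calcitriol, 5 in differentiated cells with vehicle, 5 in undifferentiated cells with calcitriol and 8 in undifferentiated cells with vehicle. It had 1 C/EBPβ site in differentiated and 5 in undifferentiated cells, and 5 RUNX2 sites in differentiated and 9 in undifferentiated cells. The RXR count of Col8a2 with vehicle was thus higher in undifferentiated cells. Col8a1 had 3 RXR sites in differentiated cells with calcitriol, 0 in differentiated cells with vehicle, 3 in undifferentiated cells with calcitriol and 2 in undifferentiated cells with vehicle. It had 7 C/EBPβ sites in differentiated and 6 in undifferentiated cells, and 3 RUNX2 sites in differentiated and 3 in undifferentiated cells. Col8a2 had fewer C/EBPβ and RUNX2 sites in differentiated cells, whereas Col8a1 had as many RUNX2 sites in both states.

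The type VI genes Col6a1, Col6a2 and Col6a3 had VDR sites in undifferentiated cells alone. Col6a3 (chr1:92663435-92740529) had 0 VDR sites in differentiated cells with calcitriol and 0 with vehicle, and 9 in undifferentiated cells with calcitriol and 1 with vehicle. Its RXR sites numbered 12 in differentiated cells with calcitriol, 7 in differentiated cells with vehicle, 10 in undifferentiated cells with calcitriol and 10 in undifferentiated cells with vehicle. C/EBPβ sites numbered 14 in differentiated and 13 in undifferentiated cells, and RUNX2 sites 9 and 8. With the outermost start alone, calcitriol VDR sites numbered 0 in differentiated and 4 in undifferentiated cells. C/EBPβ sites then numbered 7 in differentiated and 9 in undifferentiated cells, and RUNX2 sites 6 and 5. The other factors were thus present around Col6a3 in both states while calcitriol VDR sites were called in undifferentiated cells alone. Of its 9 VDR sites 8 are clustered in intergenic sequence behind the gene, and 1 lies at -66.0 kb. Col6a1 and Col6a2 each had 3 VDR sites in undifferentiated cells with calcitriol, 1 with vehicle and 0 in differentiated cells. Products of the 3 genes assemble into 1 trimer. Col6a1 had 6 RXR sites in differentiated cells with calcitriol, 5 in differentiated cells with vehicle, 3 in undifferentiated cells with calcitriol and 5 in undifferentiated cells with vehicle. It had 11 C/EBPβ site in differentiated and 8 in undifferentiated cells, and 6 RUNX2 sites in differentiated and 4 in undifferentiated cells. Col6a2 had 5 RXR sites in differentiated cells with calcitriol, 5 in differentiated cells with vehicle, 3 in undifferentiated cells with calcitriol and 5 in undifferentiated cells with vehicle. It had 9 C/EBPβ sites in differentiated and 6 in undifferentiated cells, and 6 RUNX2 sites in differentiated and 5 in undifferentiated cells. The windows of these neighbours overlap, and they share all of their VDR sites.

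**Figure D3:**
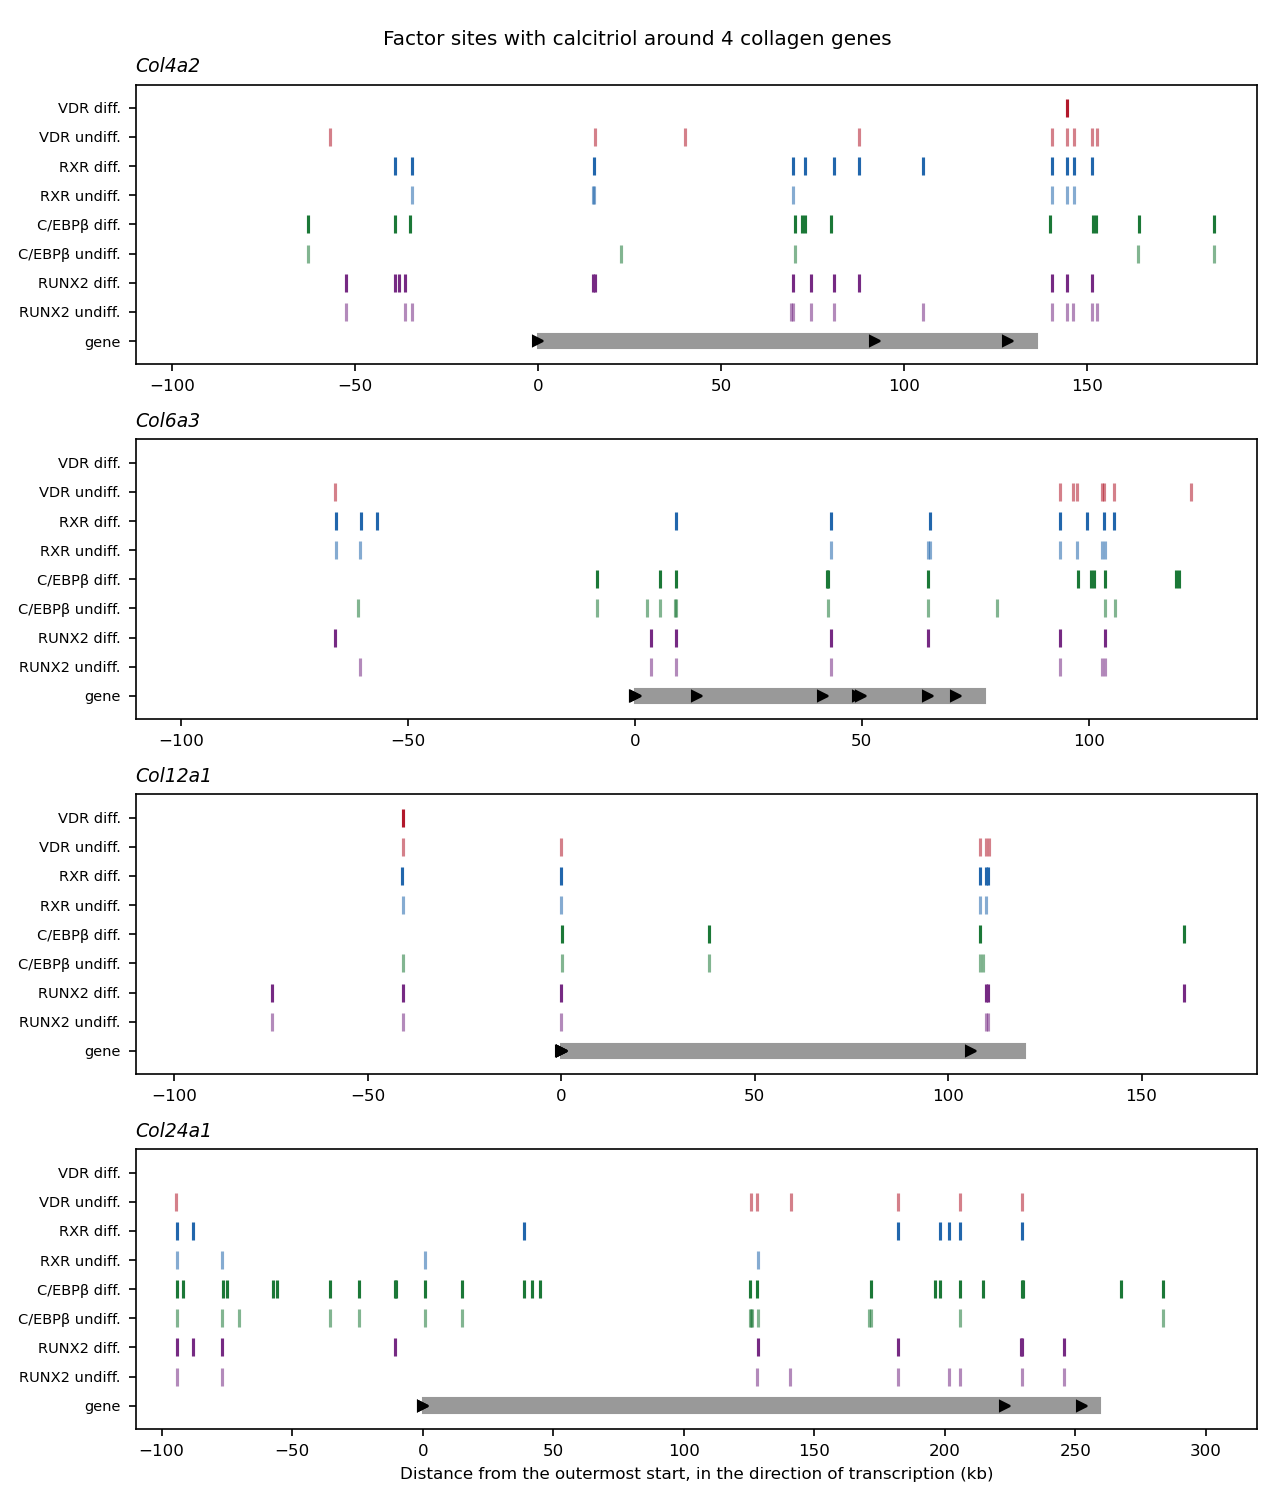
Positions of factor sites with calcitriol around Col4a2, Col6a3, Col12a1 and Col24a1, in kb from the outermost start in the direction of transcription; the grey bar is the gene and arrowheads are annotated starts. For each factor the upper row is differentiated (diff.) and the lower row undifferentiated cells (undiff.). VDR ticks appear in the undifferentiated row of all 4 genes, and the differentiated row holds 1 tick at Col4a2, 1 at Col12a1 and none at Col6a3 and Col24a1.

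Among FACIT genes, Col12a1, Col14a1 and Col16a1 encode chains of dense connective tissue, and each had 5 VDR sites in undifferentiated cells with calcitriol. In differentiated cells with calcitriol Col12a1 had 1, Col14a1 had 0 and Col16a1 had 1. With vehicle Col12a1 had 1 site in differentiated cells, the other 2 genes had 0, and each of the 3 had 1 in undifferentiated cells. Col12a1 and Col16a1 were the members with a VDR site at a promoter of their own, centred at -35 and -526 bp from a start and called in undifferentiated cells with calcitriol alone. At the Col12a1 promoter RXR, C/EBPβ and RUNX2 sites were called in both states with calcitriol, and RXR also with vehicle. The Col12a1 site that remained in differentiated cells is at -41.0 kb, at the promoter of Cox7a2. Col12a1 had 5 RXR sites in differentiated cells with calcitriol, 2 in differentiated cells with vehicle, 4 in undifferentiated cells with calcitriol and 5 in undifferentiated cells with vehicle. It had 5 C/EBPβ sites in differentiated and 5 in undifferentiated cells, and 6 RUNX2 sites in differentiated and 5 in undifferentiated cells. Type XII and type XIV collagen coat the fibrils of tendon and skin. Col14a1 had 6 RXR sites in differentiated cells with calcitriol, 4 in differentiated cells with vehicle, 6 in undifferentiated cells with calcitriol and 7 in undifferentiated cells with vehicle. It had 10 C/EBPβ sites in differentiated and 12 in undifferentiated cells, and 5 RUNX2 sites in differentiated and 5 in undifferentiated cells. Col16a1 had 2 RXR sites in differentiated cells with calcitriol, 1 in differentiated cells with vehicle, 3 in undifferentiated cells with calcitriol and 1 in undifferentiated cells with vehicle. It had 5 C/EBPβ sites in differentiated and 9 in undifferentiated cells, and 1 RUNX2 site in differentiated and 6 in undifferentiated cells. RUNX2 sites were fewer in differentiated cells at Col16a1 and not at the other 2.

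The cartilage chains of type IX gave a different picture. Col9a1 and Col9a2 had no VDR site in any list, and the VDR sites of Col9a3, 1 in differentiated and 1 in undifferentiated cells with calcitriol and 1 and 2 with vehicle, lay at the promoter of Dido1. Col19a1 had a single site in all 12 factor lists, for C/EBPβ in differentiated cells. Col20a1 had C/EBPβ sites and 1 RXR site, and Col22a1, a chain of muscle-tendon junctions, had 1 VDR site in undifferentiated cells with calcitriol.

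Of the minor fibrillar genes, Col24a1 encodes a chain found in developing bone. Col24a1 (chr3:144955436-145214975) had 0 VDR sites in differentiated cells with calcitriol or vehicle, and 7 in undifferentiated cells with calcitriol and 0 with vehicle. With the outermost start alone the undifferentiated count was 1, so the other 6, all intronic, rest on starts annotated inside the gene. C/EBPβ sites numbered 27 in differentiated cells and 16 in undifferentiated cells, or 15 and 7 with the outermost start alone. Among all protein-coding genes, 3 had at least 27 C/EBPβ sites in differentiated cells and 59 had at least 16 in undifferentiated cells. RXR sites near Col24a1 numbered 9 in differentiated cells with calcitriol, 5 in differentiated cells with vehicle, 4 in undifferentiated cells with calcitriol and 6 in undifferentiated cells with vehicle. RUNX2 sites near it numbered 10 in both states, or 4 in differentiated and 2 in undifferentiated cells with the outermost start alone.

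Col27a1, a chain of cartilage fibrils, had 4 VDR sites in undifferentiated cells with calcitriol, 3 in its own introns and 1 in an intron of Ambp, and 0 in the other 3 VDR lists. Col11a2, another cartilage chain, had 7 VDR sites in undifferentiated cells with calcitriol and 5 with vehicle. All of these lay at promoters of its neighbours Rps18, Slc39a7 and Brd2 and none at Col11a2 itself. Col11a1, its partner chain, had no VDR or RXR site in any list. Col27a1 had 4 RXR sites in differentiated cells with calcitriol, 2 in differentiated cells with vehicle, 6 in undifferentiated cells with calcitriol and 5 in undifferentiated cells with vehicle. It had 4 C/EBPβ sites in differentiated and 8 in undifferentiated cells, and 5 RUNX2 sites in differentiated and 6 in undifferentiated cells. C/EBPβ sites were thus fewer after differentiation at Col27a1. Col11a2 had 6 RXR sites in differentiated cells with calcitriol, 5 in differentiated cells with vehicle, 6 in undifferentiated cells with calcitriol and 9 in undifferentiated cells with vehicle. It had 1 C/EBPβ site in differentiated and 1 in undifferentiated cells, and 3 RUNX2 sites in differentiated and 8 in undifferentiated cells.

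The multiplexins Col15a1 and Col18a1 had 3 and 2 VDR sites in undifferentiated cells with calcitriol and 0 in the other 3 VDR lists. Around Col15a1, C/EBPβ sites numbered 13 in differentiated and 9 in undifferentiated cells. Its RXR sites numbered 7 in differentiated cells with calcitriol, 5 in differentiated cells with vehicle, 5 in undifferentiated cells with calcitriol and 4 in undifferentiated cells with vehicle. RUNX2 sites near it numbered 5 in differentiated and 7 in undifferentiated cells. Col18a1 had 2 RXR sites in differentiated cells with calcitriol, 1 in differentiated cells with vehicle, 1 in undifferentiated cells with calcitriol and 2 in undifferentiated cells with vehicle. It had 5 C/EBPβ sites in differentiated and 4 in undifferentiated cells, and 3 RUNX2 sites in differentiated and 3 in undifferentiated cells. The transmembrane genes Col13a1, Col17a1 (a hemidesmosome component) and Col23a1 had 1 VDR site each in undifferentiated cells with calcitriol. Across these 3 genes RXR sites numbered 0 to 2 in every list, C/EBPβ sites 1 to 6 and RUNX2 sites 1 to 5. The highest C/EBPβ count was 6 at Col17a1 in differentiated cells, against 4 in undifferentiated cells. The highest RUNX2 count was 5 at Col13a1 in differentiated cells, against 2 in undifferentiated cells. Col13a1 had no site in any factor list with its outermost start alone, and Col23a1 then kept C/EBPβ sites only. Col25a1 had 1 RUNX2 site in both states and no site of another factor.

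RXR sites were spread over the same number of members in both states with calcitriol. In differentiated cells 22 of 32 members had an RXR site with calcitriol (43.7% of all genes) and 19 with vehicle (33.5% of all genes). In undifferentiated cells 22 had one with calcitriol (43.8% of all genes) and 22 with vehicle (44.2% of all genes). Calcitriol went with more RXR sites near 17 members in differentiated cells, against 26.9% of all genes, and with fewer near 1, Col20a1, against 4.17% of all genes. In undifferentiated cells more RXR sites were counted near 9 members (15.0% of all genes) and fewer near 10 (17.6% of all genes). Calcitriol counts were thus mostly higher in differentiated cells and mixed in undifferentiated cells. The shares of all genes include genes with no RXR site in either list. In differentiated cells such genes were 9 of 32 members and 54.5% of all genes. Before differentiation they were 8 of 32 members and 49.8% of all genes. The whole RXR list held 8126 sites with calcitriol and 4815 with vehicle in differentiated cells. For undifferentiated cells these sizes were 7591 and 7834, and a change beyond list length was not tested. In differentiated cells Col7a1, Col8a1, Col17a1 and Col28a1 had an RXR site with calcitriol alone (11.9% of all genes) and Col20a1 with vehicle alone (1.74%). In undifferentiated cells Col7a1 and Col9a2 had one with calcitriol alone (6.00%), and Col4a6 and Col22a1 with vehicle alone (6.40%).

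Between states, RXR call changes were few. With calcitriol, RXR sites were more numerous in differentiated cells near 11 members (17.9% of all genes) and fewer near 5 (17.7%). Col22a1 had one in differentiated cells alone (7.49%) and Col9a2 in undifferentiated cells alone (7.57%). With vehicle, they were more numerous in differentiated cells near 4 members, namely Col4a1, Col4a2, Col15a1 and Col20a1 (7.02% of all genes), and fewer near 13 (29.0%). Col20a1 had a vehicle RXR site in differentiated cells alone (3.48%), and Col4a6, Col8a1, Col17a1 and Col28a1 in undifferentiated cells alone (14.1%). Genes with no RXR site in either state were 9 of 32 members and 48.7% of all genes with calcitriol. With vehicle they were 9 of 32 members and 52.3% of all genes.

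Distinct RXR sites near the members numbered 88 in differentiated cells with calcitriol and 52 with vehicle, and 73 in undifferentiated cells with calcitriol and 76 with vehicle. Sites absent from the vehicle list made up 53.4% of the 88 in differentiated cells (95% interval 42.5 to 64.1), against 47.4% of the whole list. In undifferentiated cells they made up 24.7% of the 73 (95% interval 15.3 to 36.1), against 30.7% of the list. The interval includes the list's share in both states.

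C/EBPβ sites lay near 29 of 32 members in differentiated cells (61.1% of all genes) and 27 in undifferentiated cells (65.8% of all genes). This order did not hold with a 50 kb window (24 and 24) or with each site given to its nearest start alone (19 and 20). More sites were counted in differentiated cells near 13 members, against 15.1% of all genes, and fewer near 9, against 32%. Col4a1 had 9 in differentiated and 5 in undifferentiated cells. Col11a1 and Col19a1 had a site in differentiated cells alone, a gain found in 3.01% of all genes, and none lost its call (7.73%). RUNX2 sites lay near 22 members in differentiated cells (46.5% of all genes) and 27 in undifferentiated cells (59.6% of all genes). More RUNX2 sites were counted in differentiated cells near 8 members, against 8.72% of all genes, and fewer near 12, against 42.1%. The 6 members with a RUNX2 call in undifferentiated cells alone were Col4a3, Col4a6, Col7a1, Col9a1, Col9a3 and Col28a1, a change found in 16.4% of all genes. Col11a1 had RUNX2 sites in differentiated cells alone (3.29%). The shares of all genes include genes with no site in either state. For C/EBPβ these were 3 of 32 members and 31.2% of all genes, and for RUNX2 4 of 32 members and 37.1%.

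Sites near the members were called again after differentiation about as often as elsewhere, and each interval includes the share of the list. The share was 68.5% of 73 RXR sites (95% interval 56.6 to 78.9, list 61.6%), 67.4% of 132 C/EBPβ sites (58.7 to 75.3, list 64.7%) and 51.9% of 106 RUNX2 sites (42.0 to 61.7, list 43.1%). The VDR share of 9.33% was the lowest of the 4 factors.

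The 75 VDR sites near the members resembled the whole VDR list of undifferentiated cells in most features. RXR sites of the same cells and treatment overlapped 42 of them (56.0%, 95% interval 44.1 to 67.5, list 60.0%), RUNX2 sites 46 (61.3%, 49.4 to 72.4, list 54.0%) and C/EBPβ sites 25 (33.3%, 22.9 to 45.2, list 44.1%). All 3 partners overlapped 17 sites (22.7%, list 24.0%) and none overlapped 16 (21.3%, list 20.3%). H4K5ac regions overlapped 74 of 75 sites and H3K4me1 regions 71, against 97.6% and 96.3% of the list. H3K9ac regions overlapped 62 of the 75 positions in differentiated cells (82.7%, list 74.3%) and 39 in undifferentiated cells (52.0%, list 60.6%). RXR sites of differentiated cells with calcitriol lay at 46 of them (61.3%, list 54.3%), although VDR was called again at 7. Introns held 49.3% of the sites (95% interval 37.6 to 61.1), against 33.5% of the list, and intergenic sequence held 24 of the 75, against 49.7%. The 75 were selected for lying near starts of long genes, so their place cannot be compared with the list as a trait.

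A DR3 match with at most 1 mismatch lay in 9 of the 75 sites (12.0%, 95% interval 5.64 to 21.6), against 14.8% of the list. Those 9 sites are at Col4a1 and Col4a2 (4), Col4a3, Col8a1, Col14a1, Col15a1 and Col16a1, and RXR overlapped 3 of them (33.3%, 95% interval 7.49 to 70.1), against 48.4% of the list's DR3 sites. The 3 are the Col8a1 intron element and the pair behind Col4a2 whose sequences are given above. RUNX matches lay in 26.7% of the 75 sites (list 27.1%) and C/EBP matches in 17.3% (list 19.5%). The shared Col24a1 and Col27a1 sites printed above hold matches of both kinds. A match is a description of letters in a site and not evidence of contact.

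H3K4me3, the mark of active starts, lay over a start of 12 of 32 members in differentiated cells (37.5%, all genes 42.3%) and 9 in undifferentiated cells (28.1%, all genes 35.0%). The 9 were Col4a1, Col4a2, Col6a2, Col6a3, Col8a1, Col8a2, Col12a1, Col16a1 and Col27a1, and each kept the mark in differentiated cells. Col4a5, Col6a1 and Col11a1 carried it in differentiated cells alone, a gain found in 8.64% of all genes. None lost it, against 1.34% of all genes.

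All 9 H3K4me3-marked members of undifferentiated cells had a VDR site with calcitriol, with a median of 4 sites, against 57.5% and a median of 1 for all genes with that mark. Among the 15 members with another mark but no H3K4me3, 9 had a VDR site (50.4% of such genes), and among the 8 with none of the 4 start marks 4 did (22.4% of such genes). In differentiated cells 4 of the 12 H3K4me3-marked members had a VDR site (17.8% of such genes), 0 of the 10 with another mark (13.7%) and 2 of the 10 with none (5.74%). Of the same 12, 10 had an RXR site with calcitriol (60.4% of such genes), 12 a C/EBPβ site (79.6%) and 11 a RUNX2 site (63.0%). The members without a start mark in either state were Col4a3, Col4a4, Col9a2, Col9a3, Col13a1, Col19a1, Col22a1 and Col25a1.

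H3K9ac lay over a start of 18 members in differentiated cells (51.4% of all genes) and 16 in undifferentiated cells (49.6% of all genes), with Col11a1 and Col15a1 gained (2.10% of all genes) and none lost (0.268%). H4K5ac lay over a start of 21 members in differentiated cells (53.3% of all genes) and 22 in undifferentiated cells (53.5% of all genes). It was gained at Col14a1 (1.62% of all genes) and lost at Col9a1 and Col20a1 (1.79% of all genes). H3K4me1 lay over a start of 22 members in differentiated cells (55.4% of all genes) and 21 in undifferentiated cells (52.7% of all genes), with Col11a1 gained (4.32% of all genes) and none lost (1.61%). Col11a1 was the member that gained H3K4me3, H3K9ac and H3K4me1 together.

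The widest H3K4me3 region over a start was narrower in differentiated cells at all 9 members marked in both states. Its median width was 2.76 kb in differentiated and 10.9 kb in undifferentiated cells. Of all genes marked in both states 98.3% were narrower, with medians of 2.53 kb in differentiated and 5.47 kb in undifferentiated cells. At Col8a2 the region was 2.27 kb wide in differentiated and 18.3 kb in undifferentiated cells, and at Col6a3 5.31 kb and 15.4 kb. H3K9ac regions went the other way, with a median of 6.41 kb in differentiated and 5.37 kb in undifferentiated cells over 16 members, of which 14 were wider and 2 narrower (33.9% of all genes were narrower).

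**Figure D4:**
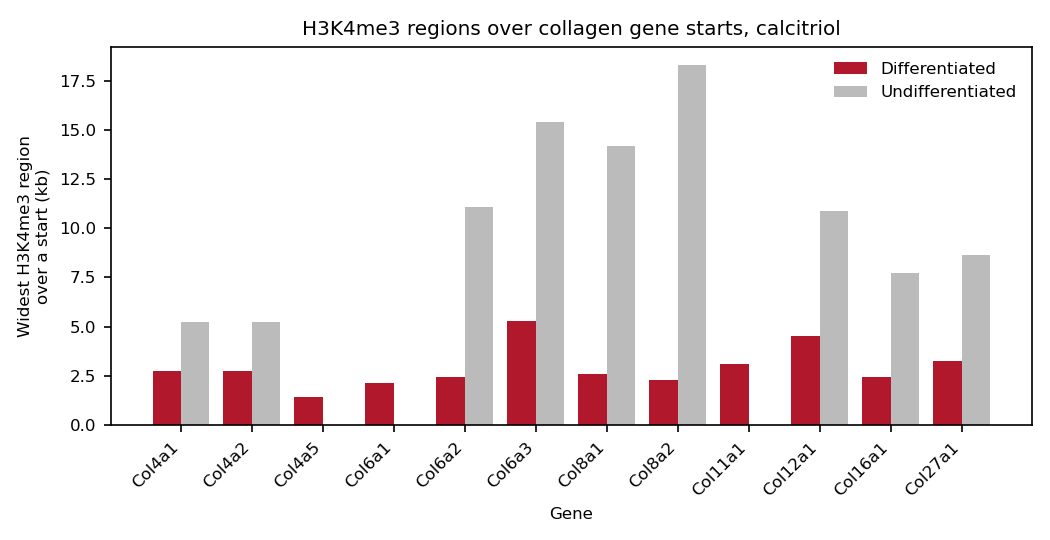
Width in kb of the widest H3K4me3 region over a start of each collagen gene with this mark, in differentiated (red) and undifferentiated cells (grey) with calcitriol; a missing bar means that no region lay over a start. Every gene with both bars has the shorter one in differentiated cells, and Col4a5, Col6a1 and Col11a1 have a bar in differentiated cells alone.

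H4K5ac regions over starts changed in both directions among the members. They were wider in differentiated cells at 10 and narrower at 10 of the 20 genes marked in both states, whereas 72.6% of all such genes were narrower. At Col6a3 the widest region spanned 166 kb in differentiated and 25.4 kb in undifferentiated cells. At Col12a1 it spanned 114 kb and 46.2 kb, at Col24a1 111 kb and 29.5 kb, and at Col15a1 92.9 kb and 23.5 kb. Col8a1 went the other way, with 14.0 kb in differentiated and 65.9 kb in undifferentiated cells. All of these widths exceed the median of all genes marked in both states, 5.16 kb in differentiated and 6.49 kb in undifferentiated cells. H3K4me1 regions were wider in differentiated cells at 12 and narrower at 9 of 21 members, and 57.7% of all such genes were narrower.

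H3K36me3, a mark laid down along transcribed gene bodies, covered at least 50% of 10 members in differentiated cells (31.2%, all genes 39.3%) and 8 in undifferentiated cells (25.0%, all genes 41.4%). Col6a1, Col6a2, Col6a3, Col8a2, Col12a1, Col16a1 and Col27a1 were covered in both states, from 89.7% to 99.3% in differentiated and from 97.0% to 99.9% in undifferentiated cells. Col4a1, Col4a2 and Col15a1 passed the threshold in differentiated cells alone, a gain found in 0.881% of all genes. The largest gain was at Col15a1, with 73.6% covered in differentiated and 2.04% in undifferentiated cells. Coverage was 65.2% and 41.9% at Col4a2 and 56.8% and 46.6% at Col4a1, and of these 2 genes Col4a1 lay nearer to the threshold in both states. The higher count in differentiated cells did not hold under other rules. It was 7 against 8 in undifferentiated cells with at least 80% of the body covered, 16 against 20 with at least 1 base, and 8 against 8 without the lowest 25% of scores. With at least 1 base the member share was also no longer below that of all genes.

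Col11a1 lay just under the threshold, with 47.3% of its body covered in differentiated and 0% in undifferentiated cells. Col8a1 lost its call, with 15.0% covered in differentiated and 94.9% in undifferentiated cells, a loss found in 3.01% of all genes. Coverage was also lower in differentiated cells at Col24a1 (0% and 38.2%) and Col4a5 (2.41% and 34.5%), though neither passed the threshold in either state.

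**Figure D5:**
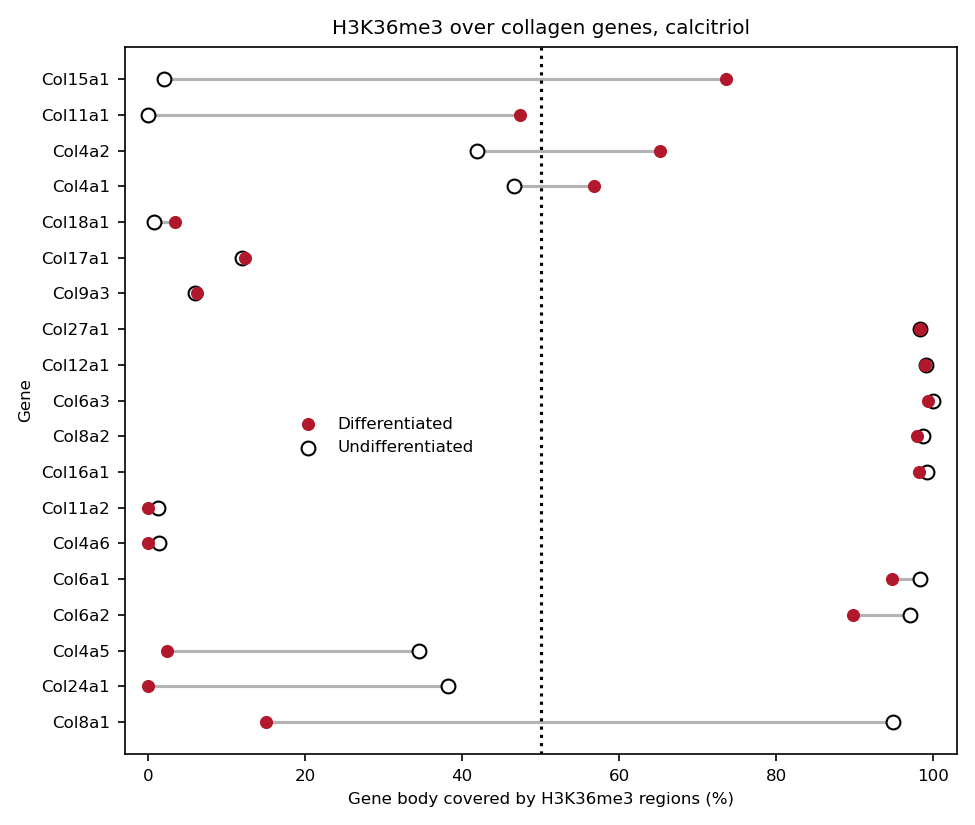
Percentage of the gene body covered by H3K36me3 regions in differentiated (filled) and undifferentiated cells (open) with calcitriol, for collagen genes with at least 1% in either state, ordered by the difference; the dotted line is the 50% threshold. Col15a1 has 73.6% and 2.04%, Col8a1 has 15.0% and 94.9%, and 7 genes are above the threshold in both states.

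Genes that act with these collagens were counted the same way. Of 22 annotated genes of collagen chain processing, such as the crosslinking enzymes Lox and Loxl2 and the lysyl hydroxylase Plod2, 6 had a VDR site in differentiated cells and 14 in undifferentiated cells with calcitriol. Of 17 basement membrane partners, such as the peroxidase Pxdn and the proteoglycan Hspg2, 5 and 12 did so. Of 12 collagen receptors, such as the integrin Itga11, Ddr2 and Cd44, 2 and 8 did so. Of the 7 fibrillar collagen genes of types I, II, III and V, 1 (Col5a3) had a VDR site in differentiated and 7 in undifferentiated cells. The background is 12.1% of all genes in differentiated and 40.8% in undifferentiated cells.

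VDR sites in undifferentiated cells with calcitriol numbered 9 near Itga11, 8 near Ddr2, 8 near Col1a2, 5 near Lox, 5 near Loxl2 and 5 near Plod2, and near each of these but Ddr2 and Plod2 none was called in differentiated cells. H3K36me3 covered at least 50% of 18 of the 22 processing genes and 6 of the 7 fibrillar genes in each state. It covered 8 of 17 basement membrane partners in differentiated and 9 in undifferentiated cells. The share over all genes was 39.3% in differentiated and 41.4% in undifferentiated cells. Among the non-fibrillar and minor collagens 10 of 32 were covered in differentiated and 8 in undifferentiated cells.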

How the data were processed

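The deposited lists, 1 per group, give region positions and a score whose meaning the file headers and labels do not state. Reads were handled with Bowtie and HOMER on mm9, per the submitters' processing notes, which give no tool versions. Most regions (70.4% to 99.6% of a list) name 2 merged inputs, so replicates cannot be separated. The deposited lists hold no counts, so depth is unknown, and regions in the lowest 25% by score were dropped in 1 alternative. Factor sites all have 1 width. The acetylation antibody is labelled H4K5ac, while the protocol text writes H3K5Ac.

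Regions were joined to the mm9 gene annotation with Python 3.11.15, numpy 2.4.6, scipy 1.17.1 and pysam 0.24.0, and drawn with matplotlib 3.10.9. Overlap meant at least 1 base, and a promoter was within 1 kb of a start. Counting was tested on simulated data. Shares of sites carry exact Clopper-Pearson 95% intervals, which cover the counting of regions only. DR3 allowed at most 1 mismatch. No test between groups was possible with 1 list per group. Values are given for members with a VDR site in any list, and for others by role group, with up to 3 genes of each pathway list by VDR sites, of which 1 is not reported here. Members and lists were chosen with earlier results of these data known.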

Additional observations from a re-analysis of the deposited data

How the results depend on the processing

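Of 102 alternatives, 90 left the value within its limits and 12 moved it by more. The limits were wide for counts, so the 90 are not a measure of robustness. In undifferentiated cells with each site given to its nearest start, 15 members for calcitriol RXR (22 before) counted as within limits. So did 19 for RUNX2 (27 before). Orders between lists or against all genes also changed in places. Without replicates or depth, a missing site may be one that the calling did not reach. No paired analysis was possible because each group has 1 list.

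With a 50 kb window, VDR vehicle sites of undifferentiated cells were near 6 members, and 75.6% of C/EBPβ sites were called again after differentiation. With 200 kb, calcitriol VDR sites of differentiated cells were near 10 members. With the outermost start alone the last count was 3. With each site given to its nearest start alone it was 2, with vehicle VDR counts of 0 in differentiated and 3 in undifferentiated cells, and a C/EBPβ count of 19 in differentiated cells. With H3K36me3 called from 1 base, 16 members in differentiated and 20 in undifferentiated cells were called. With sites at promoters of other genes left out, an alternative chosen after seeing the data, vehicle VDR counts were 0 in differentiated and 5 in undifferentiated cells. Fewer sites enter each narrower rule by construction, and no other cause was tested.

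Several small differences between lists changed order. The C/EBPβ count, higher in differentiated cells, was 19 there and 20 in undifferentiated cells with the nearest start alone, and 24 in both with a 50 kb window. The H3K36me3 count, also higher in differentiated cells, was 7 there and 8 in undifferentiated cells at 80% of the body, and 8 in both without the lowest 25% of scores. RXR, H3K4me1 and H4K5ac counts changed order or tied in the same way. The RUNX2 count, lower in differentiated cells, was 19 in both with the nearest start alone. Against all genes, the member share moved to the other side for H3K36me3 from 1 base (62.5% against 50.8% in undifferentiated cells) and for calcitriol VDR in differentiated cells with the outermost start alone (9.38% against 11.4%). It also did so for vehicle VDR in differentiated cells where the count was 0, and for H3K9ac in undifferentiated cells with the outermost start alone (46.9% against 47.2%) and without the lowest 25% of scores (43.8% against 46.1%). The order of calcitriol VDR counts, lower in differentiated cells, held under each alternative run.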
